A study of Mus musculus with 9 samples.

Results

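The nuclear genes for the subunits of the mitochondrial respiratory chain and ATP synthase were followed in 2 mouse blood-forming cell populations, in total and in polysomal RNA. Members were chosen by symbol, as every gene of the count table whose name begins with Nduf and a subunit letter, Sdh, Uqcr, Cox4 to Cox8 or Atp5, together with Ndufab1, Cyc1 and Usmg5 and without pseudogenes marked as such. The rule gave 87 of 47480 genes, 38 for complex I, 4 for complex II, 9 for complex III, 18 for complex IV and 18 for complex V. A filter on low counts left 82 of them among 16426 tested genes. It removed Ndufa4l2 of complex I and Cox7a1, Cox7b2, Cox8b and Cox8c of complex IV, so counts and medians below are over the 82 tested genes.

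All cells came from C57BL/6 mice, with no age given in the sources used here. LSK cells are labelled as stem cells (2 libraries of total and 2 of polysomal RNA) and MP cells as progenitor cells (2 and 3 libraries), with the abbreviation MP not spelled out. Every group had cycloheximide, which holds ribosomes on their messages, at 100 ug/ml for 10 min. The lysates were spun through sucrose gradients of 10 to 60%, and fraction 7 of 10 was taken as polysomal RNA, so transcripts in lighter and heavier fractions are not part of it. The labels do not say that libraries of a group came from separate animals or sorts, so a p-value here sets a difference against library-to-library spread alone, part of which may be technical.

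The respiratory chain complexes and ATP synthase carry out oxidative phosphorylation in the inner mitochondrial membrane. Complex I takes electrons from NADH and complex II from succinate, complex III passes them to cytochrome c, complex IV hands them to oxygen, and complex V uses the proton gradient to make ATP. Blood stem cells are known to rely on glycolysis more than their progeny do, and progenitors to use more oxidative phosphorylation. Subunits are encoded in both the nuclear and the mitochondrial genome, except those of complex II, which are all nuclear. The count table holds 0 genes named as mitochondrial-genome genes, so the nuclear side alone is described.

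Many of these genes share promoter elements, and the sequences below show the letters that were searched for in genes that carry them. RefSeq promoters, from 250 bases before to 50 after the start in GRCm38.p6, were at hand for 67 of the 87 genes. GCGCANGCG, the core bound by the transcription factor NRF1, was found on either strand in 20 of them (29.9%), against 7.03% of the 27025 genes with a promoter and 14.4% of the 10717 of these that were tested. CCGGAAG, read by ETS factors such as GABPA, was found in 16 (23.9%, against 9.93% and 19.1%). AAGATGGCG is shared by YY1 sites and by the TISU element that spans the start codon of messages with short leaders. It stood on the gene's own strand within 50 bases after the RefSeq start of 6 genes (8.96%, against 0.762% and 1.74%). Matches can overlap, since CCGGAAG ends with the letters that open AAGATGGCG, and a match is a description of the letters only. These are the 100 bases before the start of Ndufs6, Uqcr11 and Sdhd, the genes with the smallest p in their complex between MP and LSK total RNA, of Sdha, the catalytic subunit of complex II, and of Cox6b1, a complex IV subunit, with NRF1 letters (GCGCANGCG or its complement) and ETS letters (CCGGAAG or its complement) in capitals.
Ndufs6: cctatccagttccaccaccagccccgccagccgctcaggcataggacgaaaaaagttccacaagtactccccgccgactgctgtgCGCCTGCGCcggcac
Sdha: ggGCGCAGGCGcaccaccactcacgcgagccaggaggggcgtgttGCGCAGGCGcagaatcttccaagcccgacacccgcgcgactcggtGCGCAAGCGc
Sdhd: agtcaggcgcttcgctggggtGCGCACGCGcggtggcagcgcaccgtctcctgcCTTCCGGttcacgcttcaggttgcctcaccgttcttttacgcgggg
Uqcr11: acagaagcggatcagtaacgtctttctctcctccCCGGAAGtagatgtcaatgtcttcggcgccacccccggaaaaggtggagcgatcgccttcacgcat
Cox6b1: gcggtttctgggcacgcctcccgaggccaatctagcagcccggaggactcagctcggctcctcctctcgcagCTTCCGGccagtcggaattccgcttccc
All 5 lie on minus strands, at chr13:73328483-73328582 (Ndufs6), chr13:74350241-74350340 (Sdha), chr9:50603850-50603949 (Sdhd), chr10:80406822-80406921 (Uqcr11) and chr7:30626115-30626214 (Cox6b1). Uqcr11 also has NRF1 letters that run across its start and so are only partly in this stretch. Cox6b2 and Atp5g1, which had the smallest p of complexes IV and V in the same comparison, had none of the letters searched for. Neither had Cox5a or Atp5b, which are described below.

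The 6 genes with AAGATGGCG near the start are shown next by the bases around it, with those letters in capitals, since the polysomal fraction bears on how messages are translated.
Atp5j2: gacttcAAGATGGCGtcactcggtgagtac
Ndufa9: tgggagAAGATGGCGgccgccgtccgc
Ndufc1: cggaacAAGATGGCGccgtccgtagtgctg
Ndufs4: tacaggAAGATGGCGgcggtc
Ndufs6: accggcAAGATGGCGgcggtgct
Ndufs7: gaggccAAGATGGCGgcgctggcgggtgag
Of these, the one for Ndufs7 is on the plus strand, at chr10:80249467-80249496. The others are on minus strands, at chr5:145191495-145191524 (Atp5j2), chr6:126849095-126849121 (Ndufa9), chr3:51408910-51408939 (Ndufc1), chr13:114388045-114388065 (Ndufs4) and chr13:73328433-73328455 (Ndufs6). The 6 genes did not share a polysomal over total value. In LSK cells their log2 changes ran from −1.0 for Ndufc1 to 1.55 for Ndufa9, with a median of 0.25 against −0.01 for the other 58 genes with a promoter, a difference that was not tested. In MP cells they ran from −1.24 to 0.05, with a median of −0.67, against −0.67 for the others. Genes with NRF1 letters had a median MP over LSK change in total RNA of 0.82 (20 genes) against 0.76 for those without (44 genes). Those with and without ETS letters had medians of 0.82 (16 genes) and 0.81 (48 genes).

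Total counts per library ran from 27342343 to 34807735, and the respiratory chain genes took 1.43% to 2.57% of them. Ly6a, which encodes the Sca-1 antigen of the LSK sort, stood at 50.2 to 110 CPM (counts scaled to a common library size, with TMM factors) in the 4 LSK libraries and at 0.159 to 1.26 CPM in the 5 MP libraries. Kit, which encodes the receptor of the same sort, stood at 1409 and 330.2 CPM in LSK total 1 and 2 and 1595 and 508 CPM in LSK polysomal 1 and 2. In MP it stood at 671 and 493 CPM in total and 1290, 1257 and 913 CPM in polysomal RNA, so it did not separate the populations. Markers of other cells differed within groups. Maturing-neutrophil markers (10 genes) held 1.36% of counts in MP total 1, 1.59% in MP polysomal 1 and 0.047% to 0.102% in the other 3 MP libraries, with none of the 10 at 0 in any library. B and plasma cell markers (8 genes) held 0.635% in LSK total 2, 0.296% in LSK polysomal 2 and 0.0139% to 0.0939% elsewhere, with 1 gene at 0 in 3 libraries. Values without the 2 MP libraries numbered 1, or without the 2 LSK libraries numbered 2, stand beside the results below.

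Levels of different genes were compared per kilobase of transcript in total RNA. Among the tested genes the median level in LSK was 136 CPM per kb and ran from 1.63 for Cox4i2 to 598 for Ndufa4. In MP the median was 230.3 CPM per kb, from 1.06 for Cox4i2 to 1703 for Atp5b. Complex V had the highest median in LSK, 226 CPM per kb, followed by complexes III (172), II (169), IV (154) and I (118). The order of complexes II, III and IV rests on small differences against the spread of their genes. In LSK the most abundant messages were Ndufa4 at 598 ± 26.4 (SD, n = 2), Cox4i1 at 573 ± 96.3, Atp5g3 at 545 ± 129, Atp5b at 514 ± 166 and Atp5a1 at 508 ± 203 CPM per kb. Ndufa4 was first named as a complex I subunit and is now placed in complex IV (it is counted with complex I here, by its symbol), Cox4i1 encodes the main isoform of subunit IV of cytochrome c oxidase, Atp5g3 encodes the ring subunit c of ATP synthase, and Atp5a1 and Atp5b encode its alpha and beta subunits. Given SDs of 129 to 203 for the ATP synthase genes, these 5 levels could not be put in order. The lowest of complex I was Ndufab1, the mitochondrial acyl carrier protein, at 11.5 ± 9.46 CPM per kb, a value that rests on a transcript model of 3479 bases for a coding sequence of 468.

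**Figure D1:**
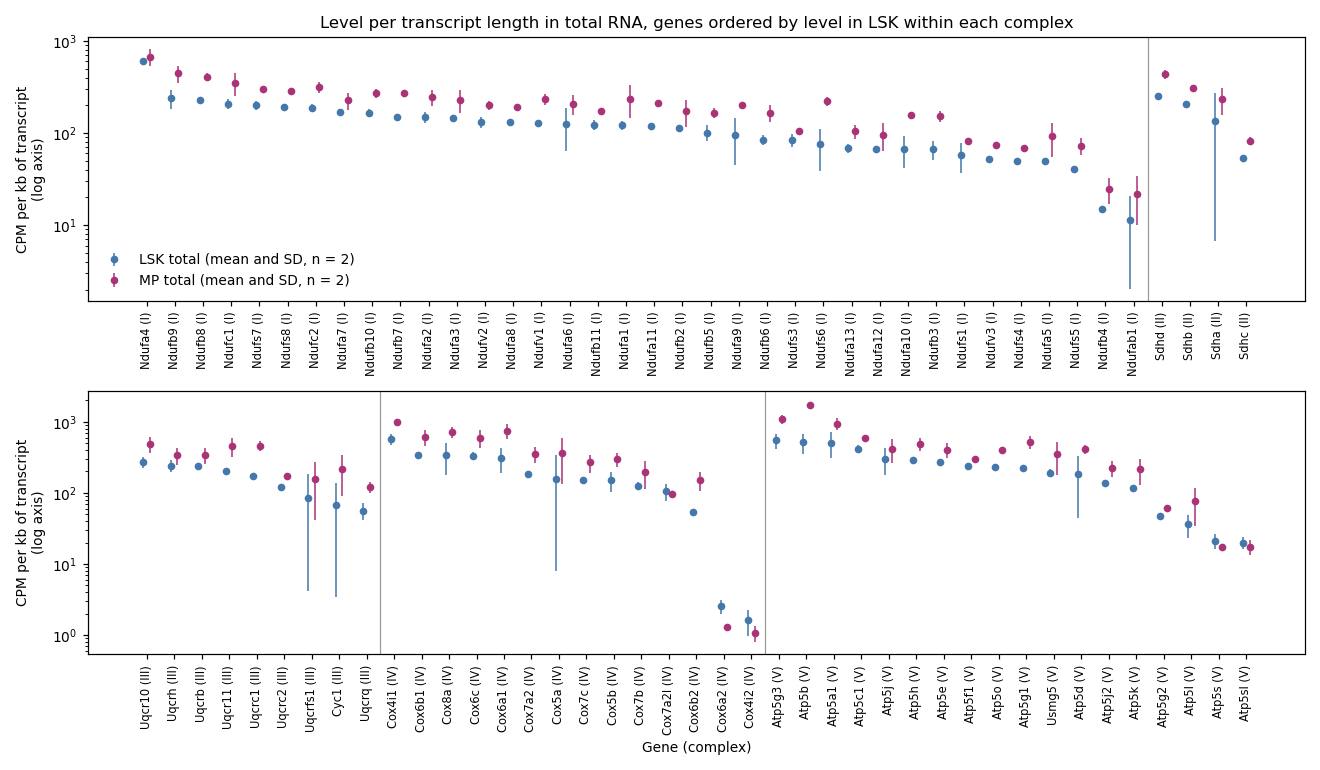
Level of the tested genes, 1 of them not shown, in total RNA, in CPM per kb of transcript on a log axis, as the mean and SD of 2 libraries, with LSK in blue and MP in purple. MP points lie above LSK points for nearly all genes, and the lowest points are Cox4i2 and Cox6a2.

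Where a subunit has several isoforms, their levels differed. Cox4i2, the isoform linked to low oxygen and lung, stood at 1.63 ± 0.66 CPM per kb in LSK total RNA, against 573 for Cox4i1. Cox6a2, the heart and muscle isoform, stood at 2.52 ± 0.56, against 310 ± 123 for Cox6a1. Cox6b2, known from testis, was nearer to its partner, at 54.4 ± 1.09, against 342 ± 34.3 for Cox6b1. The 3 genes for subunit c, which encode the same mature protein, stood at 545 (Atp5g3), 222 ± 8.75 (Atp5g1) and 47.5 ± 0.69 (Atp5g2) CPM per kb. Isoforms that did not pass the filter were close to absent. Cox7a1, the heart and muscle partner of Cox7a2, had 68 counts over the 9 libraries, Cox7b2 and Ndufa4l2 had 5 each, Cox8b 3 and Cox8c 1. A count of 0 in a library allows up to 3 counts, at most 0.125 CPM here, for counting error only.

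The first comparison asked how the levels of these genes differ between the populations in total RNA. In all 5 complexes the genes had higher values in MP than in LSK cells. The fitted log2 change was positive for 77 of 82 genes, with a median of 0.78, against −0.01 for all tested genes and 0.25 for the 9073 with a mean of at least 10 CPM. Complex medians were 0.72 (I), 0.70 (II), 0.88 (III), 0.84 (IV) and 0.79 (V). Both MP libraries were above both LSK libraries for 69 of the 82 genes (84.1%), against 22.8% of all tested genes. No single gene passed by edgeR's quasi-likelihood test at an adjusted p under 0.05, a threshold that 1.09% of all genes passed, and 5 of the 82 (6.10%) had an unadjusted p under 0.05, against 17.1% of all genes. In simulated counts with 50 genes changed at each size, the same test recovered 0% of genes changed 2-fold and 0% of those changed 16-fold in this comparison. In the deposited counts it passed 179 genes, so these recovery rates need not hold there. In bulk RNA, fewer cells of a type and less RNA per cell cannot be told apart.

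Summed over its genes, complex I stood at 3828 and 4067 CPM in the LSK total libraries and 6045 and 6890 CPM in the MP total libraries. Complex II stood at 1384 and 824 CPM in LSK and 2032 and 1615 CPM in MP. Complex III stood at 1034 and 1541 CPM in LSK and 2292 and 2906 CPM in MP. All MP sums were above all LSK sums in these complexes, and the same held for the others. Complex IV went from 1530 and 2222 CPM in LSK to 2897 and 4079 CPM in MP. Complex V went from 4693 and 5107 CPM to 10009 and 9894 CPM. Complex V made up 37.4% ± 0.37 of the summed level in LSK and 41.0% ± 2.85 in MP (SD, n = 2), and complex I 30.1% ± 0.81 and 26.6% ± 0.83. Atp5b of complex V had means of 984 CPM in LSK and 3263 CPM in MP total RNA. The higher share of complex V in MP thus leans on this gene, and it also lowers the share of the others.

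**Figure D2:**
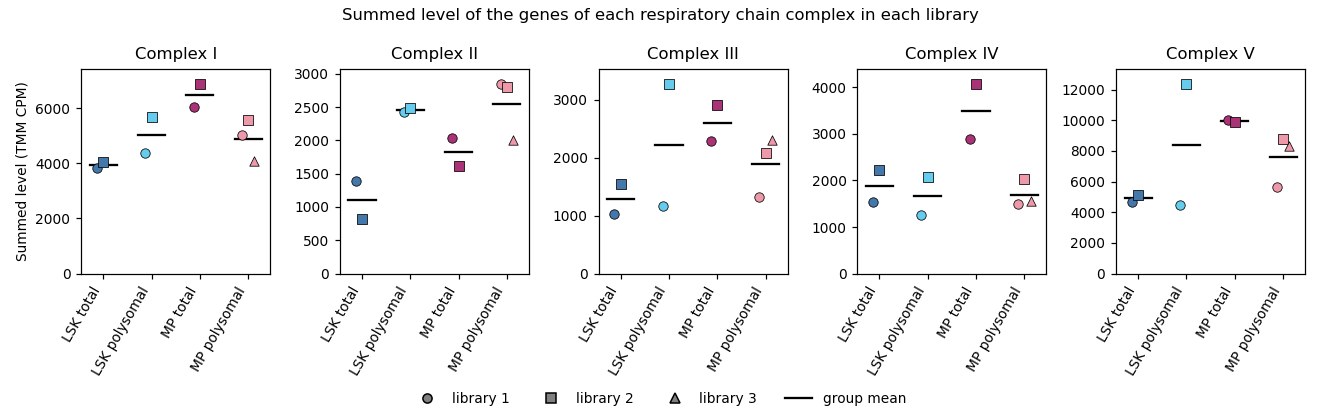
Sum of TMM-scaled CPM over the genes of each complex, 1 point a library and a black bar for the group mean, with the axis from 0. In every complex both MP total libraries lie above both LSK total libraries, and the 2 LSK polysomal libraries lie far apart in complexes III and V.

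Within complex I, the largest change was that of Ndufs6, an accessory subunit of the electron-input arm. Its levels were 57.5 and 28.2 CPM in LSK total RNA and 116 and 137 CPM in MP total RNA, a log2 change of 1.56 (SE 0.52, adjusted p = 0.168). Ndufb3, of the membrane arm, stood at 58.9 and 42.5 CPM in LSK and 105 and 128 CPM in MP (1.2, SE 0.52, adjusted p = 0.28). The groups did not overlap for either gene. The catalytic subunits Ndufs1 and Ndufv1, which carry iron-sulfur clusters and the flavin, had log2 changes of 0.51 and 0.88. All 37 tested genes of complex I had positive values.

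Complex II behaved alike in its 4 genes. The iron-sulfur subunit gene Sdhb stood at 234 CPM in both LSK libraries and 346 and 351 CPM in MP, and the membrane anchor genes Sdhc and Sdhd had changes of 0.62 and 0.79. The flavoprotein gene Sdha was the one with overlapping groups, at 675 and 102 CPM in LSK and 831 and 522 CPM in MP (0.80, SE 0.73). In complex III, Uqcr11, a small accessory subunit, stood at 84.5 and 97.9 CPM in LSK and 161 and 247 CPM in MP (1.16, SE 0.46, adjusted p = 0.238). Cyc1 encodes cytochrome c1, the electron donor to cytochrome c. Its levels were 27.7 and 179 CPM in LSK and 194 and 468 CPM in MP (1.68, SE 1.33), so a large change came with a large spread.

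Of the 5 negative values, 3 were in complex IV and the other two in complex V. Cox4i1 followed the rest, at 376 and 477 CPM in LSK and 685 and 773 CPM in MP (0.77, SE 0.44). Cox6b2 stood at 29.6 and 30.5 CPM in LSK and 66.1 and 100.2 CPM in MP (1.47, SE 0.50, adjusted p = 0.175), and passed only in DESeq2 (adjusted p = 0.0355). Those of complex IV belonged to Cox6a2 (−0.97), Cox4i2 (−0.62) and Cox7a2l (−0.14), the last of which encodes a supercomplex assembly factor and not a catalytic subunit. Only Cox6a2 had non-overlapping lower values (28.5% of all tested genes were of that kind), at 1.98 and 1.45 CPM in LSK and 0.899 and 0.844 CPM in MP.

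In complex V the beta subunit gene Atp5b stood at 759.8 and 1208 CPM in LSK and 3457 and 3069 CPM in MP, a log2 change of 1.73 (SE 0.98, adjusted p = 0.417). Atp5g1 stood at 129 and 136 CPM in LSK and 266 and 358 CPM in MP (1.24, SE 0.48, adjusted p = 0.226). The alpha and gamma subunit genes Atp5a1 and Atp5c1 had changes of 0.89 and 0.50. Its negative values were those of Atp5s (−0.28) and Atp5sl (−0.19), which are named after ATP synthase but are not core parts of the enzyme.

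Scaling moved these values. With library totals in place of TMM factors the median of all genes shifted to −0.36 and that of the respiratory chain genes to 0.42, with 74 of 82 positive. Markers moved with the comparison as well. A list of 12 erythroid genes took 0.236% and 0.306% of counts in LSK total RNA and 0.66% and 0.959% in MP total RNA, and 8 granulocyte and monocyte progenitor genes took 0.997% and 0.656% in LSK and 5.45% and 3.25% in MP. No gene of either list was at 0, and their part in the result was not tested. Without the 2 MP libraries numbered 1 the median of the respiratory chain genes was 0.93, and without the 2 LSK libraries numbered 2 it was 0.85. Without MP total 2 it was 0.55, where the median of all genes was −0.26.

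In polysomal RNA the same comparison gave values near 0. The median log2 change of MP over LSK was 0.05, against −0.03 for all tested genes, and 43 of 82 values were positive. With the length and GC trend of each library removed, 66 of 82 were positive, with a median of 0.29 against 0.12 for all genes. Without the 2 LSK libraries numbered 2, 56 were positive, with a median of 0.14 against 0.12, and without the 2 MP libraries numbered 1 the medians were 0.05 and −0.02. Complex medians lay between −0.06 (II) and 0.15 (III). Groups did not overlap for 2 genes in the higher direction (15% of all tested genes) and for 6 in the lower (17.4%). None passed by edgeR's test, where 3.35% of all genes passed, and 2 (2.44%) had an unadjusted p under 0.05, against 17.8% of all genes. These were the isoform genes of complex IV. Cox6a2 stood at 2.09 and 2.03 CPM in LSK polysomal RNA and 0.615, 0.595 and 0.542 CPM in MP polysomal RNA (−1.81, SE 0.55, adjusted p = 0.111, and 0.0376 in DESeq2). Cox6b2 stood at 21.1 and 24.1 CPM in LSK and 54.0, 48.9 and 42.3 CPM in MP (1.10, SE 0.47, adjusted p = 0.254). Both had the same direction in total RNA, though the labels do not say whether total and polysomal libraries share a lysate. Cox6a2 rests on few counts, 17 to 68 a library.

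The other non-overlapping polysomal values were smaller differences. Ndufc1 was the second gene with higher values in MP, at 40.0, 60.1 and 40.3 CPM against 31.2 and 33.6 CPM in LSK (0.53, SE 0.46). Lower values in MP were found for Ndufa4, Ndufa7, Ndufa8 and Ndufa12, with log2 changes from −0.47 to −0.21, and for Cox7a2l. Cox7a2l stood at 124 and 143 CPM in LSK and 86.4, 78.8 and 48.2 CPM in MP (−0.91, SE 0.44, adjusted p = 0.327). The core gene Cox4i1 overlapped fully, at 395 and 512 CPM in LSK and 473, 509.9 and 332 CPM in MP (−0.05, SE 0.40).

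**Figure D3:**
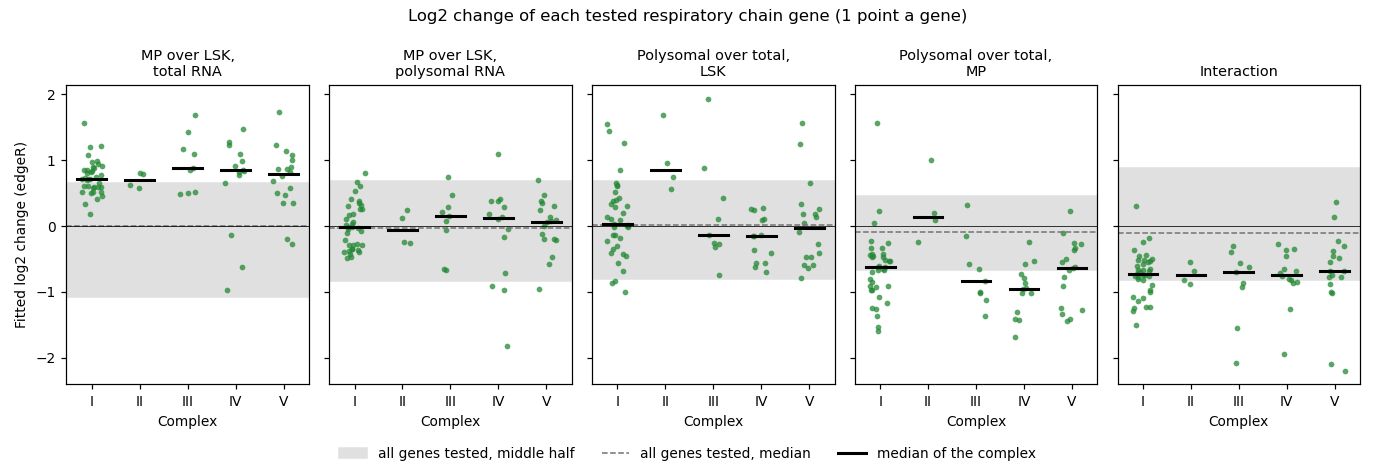
Fitted log2 change of each of the 82 tested genes in the 5 comparisons, 1 point a gene, by complex, with the complex median as a black bar and the interquartile range of all tested genes in grey. Complex medians sit at 0.70 to 0.88 between populations in total RNA, near 0 in polysomal RNA, and at −0.62 to −0.95 for polysomal over total RNA in MP cells outside complex II.

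The fractions were then compared within each population, which asks which messages were in the polysomal fraction relative to their level in total RNA. In LSK cells the respiratory chain genes had a median log2 change of 0.02, and 42 of 82 values were positive. The median was also 0.02 for all genes, but 0.26 for the 9073 with a mean of at least 10 CPM. The 5 complexes did not share a value. Complex II had a median of 0.86, and the others lay between −0.16 (IV) and 0.03 (I). Polysomal values were above total values without overlap for 20 genes (24.4%, against 16.2% of all tested genes) and below for 18 (22%, against 20.6%). No gene passed, and 0% of all genes did. At an unadjusted p under 0.05 there were 4 of the 82 and 1981 of all genes, and DESeq2 called 433 of all genes and 0 of the 82.

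The 4 genes of complex II were all higher in polysomal RNA without overlap. Sdha stood at 675 and 102 CPM in total and 1344 and 1160 CPM in polysomal RNA (1.69, SE 0.74, adjusted p = 0.406). That value depends on which total library it is set against, since it was 0.90 without LSK total 2 and 3.64 without LSK total 1. Sdhc stood at 179.7 and 162 CPM and at 315 and 352 CPM (0.96, SE 0.45, adjusted p = 0.438). Sdhd stood at 296 and 325 CPM and at 521 and 522 CPM (0.75, SE 0.43, adjusted p = 0.53). Sdhb, at 234 CPM in both total libraries and 247 and 448 CPM in the polysomal ones, had the smallest change (0.57, SE 0.46).

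In the other complexes the long messages had the high values. Ndufv1 stood at 219 and 204 CPM in total and 388 and 765 CPM in polysomal RNA (1.45, SE 0.47, adjusted p = 0.269). Ndufa9, a subunit near the quinone site, stood at 188 and 86.8 CPM and at 355 and 449.9 CPM (1.55, SE 0.52, adjusted p = 0.277). Atp5a1 stood at 1611 and 900.3 CPM and at 1751 and 4177 CPM (1.24, SE 0.53, adjusted p = 0.394). Short messages were lower, as for the small complex IV subunits Cox7b (114 and 139 CPM in total, 96.2 and 59.8 CPM in polysomal RNA, −0.69, SE 0.53) and Cox7c (−0.57, SE 0.50). With the trend on transcript length and GC content removed, the values of Cox7b and Cox7c were 0.53 and 0.23. Atp5b and Uqcrc1, a core protein of complex III, had values of 1.56 and 1.93 that rest on 1 library. Uqcrc1 stood at 264 and 306 CPM in total RNA, 192 CPM in LSK polysomal 1 and 1978 CPM in LSK polysomal 2. Without LSK polysomal 2 the changes were −0.93 for Atp5b and −0.56 for Uqcrc1. Over the 82 genes, 19 values were positive with library totals (median −0.39, against −0.36 for all genes) and 57 with the length and GC trend removed (0.25, against 0.15). Without the 2 LSK libraries numbered 2 the median was 0.02, against −0.06 for all genes.

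In MP cells the genes had lower values in polysomal than in total RNA, in every complex but complex II. The median log2 change was −0.66, against −0.08 for all tested genes, and 74 of 82 values were negative. Complex medians were −0.62 (I), 0.14 (II), −0.83 (III), −0.95 (IV) and −0.63 (V). All 3 polysomal libraries were below both total libraries for 54 genes (65.9%, against 16.4% of all tested genes), 27 of 37 in complex I and 12 of 14 in complex IV, and above them for 2 (2.44%, against 16.3%). No gene passed by edgeR's test, 0% of all genes did, and 14 of the 82 and 1243 of all genes had an unadjusted p under 0.05. DESeq2 called 30 of all genes and 0 of the 82. With the trend on transcript length and GC content removed in each library, the median was −0.12, against 0.05 for all genes, and 32 of 82 values were positive. With library totals it was −0.81, against −0.22.

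The lowest values came with a wide spread between libraries, at −1.68 for Cox5a (SE 1.44), −1.60 for Ndufa6 (SE 0.71) and −1.54 for Ndufab1 (SE 1.05). The genes described next were among the 2 with the smallest p in complexes V and I. Atp5e, the epsilon subunit of ATP synthase, stood at 141 and 199 CPM in total and 67.4, 83.0 and 41.2 CPM in polysomal RNA (−1.41, SE 0.45, adjusted p = 0.656). Usmg5, a small subunit of the ATP synthase dimer interface, stood at 82.6 and 171 CPM and at 51.6, 55.8 and 43.6 CPM (−1.33, SE 0.46, adjusted p = 0.656). Ndufb9, of the complex I membrane arm, stood at 267 and 361 CPM and at 87.8, 172 and 107 CPM (−1.36, SE 0.49, adjusted p = 0.656). All 3 had groups that did not overlap.

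Complexes III and IV had the same form. Uqcr11 stood at 161 and 247 CPM in total and 103, 116 and 84.7 CPM in polysomal RNA (−1.01, SE 0.41, adjusted p = 0.656), though the value was 0.10 once the length and GC trend was removed. Uqcr10, another small subunit of complex III, also had a change of −1.01. Cox6c stood at 242 and 362 CPM and at 167, 175 and 106 CPM (−1.01, SE 0.42, adjusted p = 0.656). Cox4i1, with 685 and 773 CPM in total and 473, 509.9 and 332 CPM in polysomal RNA, had a change of −0.73 (SE 0.39, adjusted p = 0.706).

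Positive values in MP cells belonged to 8 genes, 6 of them with coding sequences of at least 600 bases and the other two Sdhc and Sdhd of complex II. Ndufs1, the largest subunit of complex I, stood at 227 and 209.5 CPM in total and 779, 626 and 522 CPM in polysomal RNA (1.56, SE 0.54, adjusted p = 0.656). Sdha stood at 831 and 522 CPM and at 1471, 1488 and 1126 CPM (1.01, SE 0.68, adjusted p = 0.784). These were the 2 members whose polysomal values were all above the total ones. Uqcrc2 (0.32), Atp5a1 (0.23), Ndufv1 (0.22), Sdhd (0.20), Sdhc (0.09) and Ndufa9 (0.05) had small positive values within their standard errors, and Sdhb was the negative member of complex II (−0.25, SE 0.42, and 0.33 with the length and GC trend removed). The summed level of complex II was 2032 and 1615 CPM in total and 2851, 2798 and 2005 CPM in polysomal RNA, so the groups overlapped. That of complex IV was 2897 and 4079 CPM in total and 1497, 2034 and 1555 CPM in polysomal RNA, with no overlap.

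MP polysomal 3 and MP total 2 weigh on this comparison. Without MP polysomal 3 the median of the 82 genes was −0.52, and without MP total 2 it was −0.48, where the median of all genes was 0.00. Without the 2 MP libraries numbered 1, which carry the neutrophil transcripts, it was −0.89. The medians without these libraries were all negative.

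Coding length went with the polysomal share in both populations. Over the 82 genes, Spearman's rho between coding length and the polysomal over total change was 0.66 in LSK and 0.60 in MP, as a description over genes that share the same libraries. Over the 13269 tested genes with a coding sequence it was 0.08 and 0.39. The respiratory chain genes are short, with a median coding length of 430.5 bases against 1359 for those genes. In MP cells the 21 members under 300 bases had a median change of −1.01, against −0.72 for the 288 tested genes of that length. The 38 members from 300 to under 600 bases had −0.62, against −0.44 for 1575 genes. The 23 members of 600 bases or more had −0.27, against 0.09 for 11406 genes. In LSK cells the medians in the same 3 classes were −0.36, 0.04 and 0.42 for the members, against −0.31, −0.03 and 0.23 for all tested genes of those lengths. In MP cells the members' median was thus below that of genes of like length in each class, a difference that was not tested. Coding length also went with a difference between libraries of 1 group. For MP total 2 over MP total 1, rho with coding length was −0.67 over the 82 genes and −0.02 over all genes. In the other pairs of libraries of a group it ran from −0.16 to 0.39 over the 82 genes. The part of such library differences in the polysomal over total values was not tested.

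**Figure D4:**
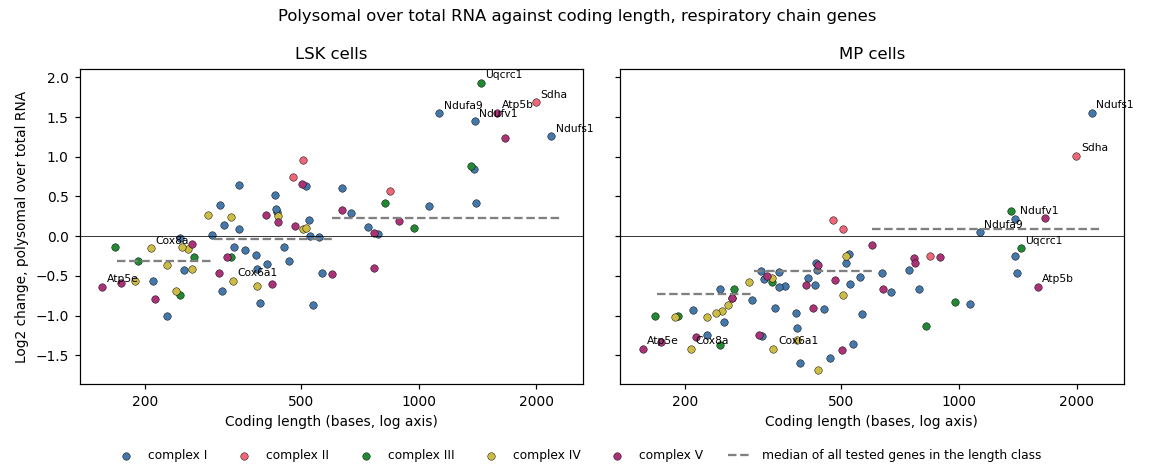
Log2 change of polysomal over total RNA against coding length on a log axis, 1 point a gene, coloured by complex, for LSK on the left and MP on the right. Values climb with length in both panels, from Atp5e at the short end to Sdha and Ndufs1 at the long end, and the dashed lines give the medians of all tested genes in the 3 length classes.

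The difference between the fraction changes of the 2 populations, MP minus LSK, was negative for 79 of 82 genes, with a median of −0.71 against −0.10 for all tested genes. Complex medians were −0.73 (I), −0.75 (II), −0.69 (III), −0.74 (IV) and −0.68 (V). For each gene this difference is also the MP over LSK change in polysomal RNA minus that in total RNA. It is therefore not separate from the comparisons above. None of these interaction terms passed, 0% of all genes did, and 0 of the 82 and 869 of all genes had an unadjusted p under 0.05, while DESeq2 called 0 of the 82. The smallest p belonged to Ndufa9, whose change was 1.55 in LSK and 0.05 in MP, a difference of −1.50 (SE 0.68, adjusted p = 0.877). Ndufv1 followed with changes of 1.45 and 0.22 (difference −1.22, SE 0.62, adjusted p = 0.877). For Cox4i1 the difference was −0.82 (SE 0.59) and for Atp5o, a stalk subunit of ATP synthase, −1.0 (SE 0.59). Positive differences were found for Atp5s (0.37), Ndufs1 (0.30) and Atp5f1 (0.13). Atp5b at −2.20 (SE 1.29) and Uqcrc1 at −2.08 (SE 1.28) had large negative values, which were 0.30 and 0.42 without LSK polysomal 2. With the length and GC trend removed the median of the 82 genes was −0.41, against −0.08 for all genes. With library totals it was −0.47, against 0.14. The LSK polysomal libraries weigh on the count of negative values. Without LSK polysomal 2, 23 of 82 were positive, with a median of −0.61 against 0.24 for all genes. Without LSK polysomal 1, 11 were positive, with −0.63 against 0.31. Without the 2 LSK libraries numbered 2, 17 were positive (−0.69 against 0.07), and without the 2 MP libraries numbered 1, 2 were (−0.91 against −0.03).

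Libraries of a group differed most in a subset of the members. Between the 2 LSK polysomal libraries 13 of 82 genes (15.9%) were over 4-fold apart, against 23.3% of all tested genes, and all 13 were higher in LSK polysomal 2. They are Cox5a, Cox6a1 and Cox8a of complex IV, Uqcrc1, Uqcrfs1 and Cyc1 of complex III, Atp5b and Atp5d of complex V, and Ndufab1, Ndufa6, Ndufa10, Ndufs3 and Ndufs7 of complex I. Cox5a, a nuclear subunit close to the catalytic core, stood at 19 and 183 CPM in LSK total, 5.68 and 235 CPM in LSK polysomal, 131 and 342 CPM in MP total and 8.16, 49.1 and 163 CPM in MP polysomal RNA. Uqcrfs1, the Rieske iron-sulfur protein, stood at 19.4 and 211, 23.6 and 285, 102 and 322, and 16.6, 50.4 and 224 CPM in the same order. In both genes the library numbered 1 was the lowest of every group.

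The same 13 genes, chosen for 1 pair of libraries, were looked at in other pairs. These pairs are not a separate check, since libraries numbered 1 shared deviations over all genes. Those of LSK polysomal 1 correlated at 0.46 with LSK total 1, 0.62 with MP polysomal 1 and 0.25 with MP total 1. MP polysomal 1 also enters more than 1 pair, and the share over all genes chosen in the same way is not given. All 13 were higher in LSK total 2 than in LSK total 1, with a median log2 ratio of 1.0, against 0.15 for the other 69 members. All 13 were higher in MP polysomal 2 than in MP polysomal 1 (1.82 against 0.06) and in MP polysomal 3 than in MP polysomal 1 (2.11 against −0.51). In MP total RNA 11 of 13 were higher in library 2, with medians of 0.35 and 0.34 for the 13 and the other members. Over all genes the ratio between the LSK polysomal libraries went with transcript GC content (rho 0.56 over genes), and over the 82 members rho was 0.41. The 13 genes had a median GC content of 53.8%, within a range of 45.3% to 61.1%, against 51.3% for the others. Without them the medians of the 69 others were 0.75 and 0.09 for MP over LSK in total and polysomal RNA, −0.01 and −0.61 for polysomal over total RNA in LSK and MP, and −0.68 for the interaction.

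**Figure D5:**
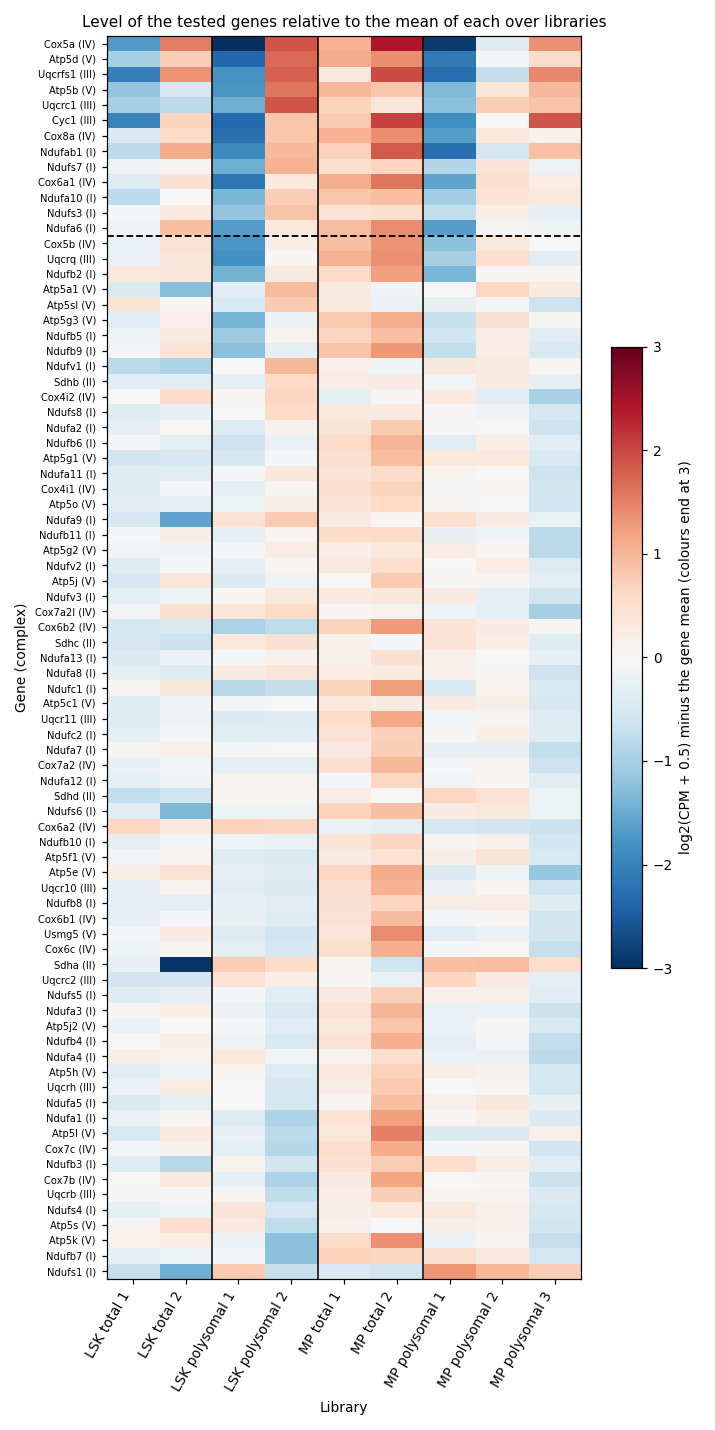
Level of the tested genes, 1 of them not shown, in each of the 9 libraries as log2(CPM + 0.5) minus the mean of that gene over the libraries, red for higher and blue for lower, with genes ordered by the ratio of the 2 LSK polysomal libraries. The 13 genes above the dashed line are lower in LSK polysomal 1 and MP polysomal 1 than in the other libraries of those groups. In LSK polysomal 2 they range from pale (Cox6a1) to red. Most genes below the line are pale in LSK polysomal 1 and 2 and MP polysomal 1, and red in MP total 2.

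Other genes of the pathway were described from lists. Of 48 assembly factors, which build the complexes without being part of them, 45 were tested. Their median MP over LSK change was 0.42 in total RNA (38 positive) and −0.05 in polysomal RNA (19 positive), and for polysomal over total RNA it was 0.19 in LSK and −0.40 in MP. None passed in any comparison by edgeR's test. Cox17, the copper chaperone of complex IV, stood at 17.4 and 17.7 CPM in LSK total, 8.90 and 5.65 CPM in LSK polysomal, 19.8 and 40.0 CPM in MP total and 11.7, 15.4 and 9.53 CPM in MP polysomal RNA. Its polysomal values were the lower ones in both populations (−1.27 and −1.29, adjusted p = 0.438 and 0.656).

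Of 20 regulators and genes of mitochondrial DNA expression, 19 were tested, with medians of −0.02 and 0.44 between populations in total and polysomal RNA, 9 and 12 of them positive, and none passed. Ppargc1a, the coactivator PGC-1alpha that drives mitochondrial gene expression, stood at 3.76 and 1.57 CPM in LSK total and 2.03 and 0.332 CPM in LSK polysomal RNA. In MP it was at 0 and 0.13 CPM in total and 0.137, 0 and 0 CPM in polysomal RNA, and its adjusted p was 0.154 and 0.124 in the 2 fractions. Nrf1, whose factor reads GCGCANGCG, stood at 103 and 42.1 CPM in LSK total and 132 and 102 CPM in MP total RNA (0.69, adjusted p = 0.592). Tfam, the packaging and transcription factor of mitochondrial DNA, stood at 105 and 111 CPM and at 85.7 and 105 CPM (−0.18, adjusted p = 0.898). Of 8 listed electron carriers and their neighbours 7 were tested, 6 of them positive between populations in total RNA, with a median of 0.66. Cycs, which encodes cytochrome c, stood at 62.4 and 63.9 CPM in LSK total and 105 and 132 CPM in MP total RNA (0.91, adjusted p = 0.432).

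Positions are those of GRCm38 in GENCODE M21, where all 87 genes are found. Of the genes the results turn on, Ndufs6 lies on chromosome 13 (73319838 to 73328542, minus strand), Sdha on chromosome 13 (74322254 to 74350280, minus strand), Cox5a on chromosome 9 (57521274 to 57532426, plus strand), Uqcrc1 on chromosome 9 (108936633 to 108949623, plus strand), Cox6b2 on chromosome 7 (4751792 to 4753094, minus strand) and Atp5b on chromosome 10 (128083273 to 128090391, plus strand). All are annotated as protein-coding.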

How the data were processed

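Groups and library numbers came from the sample titles. The authors deposited raw counts per gene symbol and a second table of normalized values on a log2 scale, which was used only as an alternative. Per the submitters' processing notes, bcl2fastq, STAR, featureCounts and DESeq2 were used with builds mm10 and GRCm38; tool versions and strandedness: not given in the sources used here. Reads shared by overlapping genes, or by a gene and a near-identical pseudogene, may therefore be split or merged.

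The count table was fitted with edgeR 4.0.16 (R 4.3.3): filterByExpr (minimum count 10, minimum total 15), TMM scaling and a quasi-likelihood model with 4 group means over the 9 libraries (residual degrees of freedom 5, prior 4.58). Tests were two-sided, with Benjamini-Hochberg adjustment over 16426 genes and a threshold of 0.05. No exact permutation p is given, because the smallest it allows is 0.333 with 2 libraries a group and 0.2 with 3 and 2. Alternatives used limma 3.58.1, DESeq2 1.42.0 and other settings. Levels per kb and coding lengths use 1 principal transcript a gene. Named members are the core subunits, isoform groups, the 2 smallest p per complex and comparison, and members of opposite sign or failing the filter. Others are named where a count of 5 or fewer, a wide spread or a printed sequence calls for them, chosen after their values were seen. Members and lists were chosen with earlier results of these data known. The procedure was tested on simulated counts, where 16-fold changes were recovered in 0% (MP over LSK, total RNA), 28% (polysomal RNA), 26% (fractions in LSK) and 64% (fractions in MP) of cases and 4-fold changes in 0%. Such rates need not hold in the deposited counts. The values of 1 complex I gene are not reported here, though it is in the counts and medians.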

Additional observations from a re-analysis of the deposited data

How the results depend on the processing

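The median of the 82 genes kept its sign in every setting run for MP over LSK in total RNA (0.42 to 0.93), for polysomal over total RNA in MP (−0.89 to −0.12) and for the interaction (−0.91 to −0.41), and not for MP over LSK in polysomal RNA (−0.08 to 0.29) or polysomal over total RNA in LSK (−0.39 to 0.25). The comparisons that kept their sign all use the same MP total libraries, so their signs are not separate results. Library totals gave medians of 0.42 (MP over LSK, total RNA) and −0.39 (fractions, LSK) and log2 ratios of the summed level in total RNA of 0.36 for complex I and 0.39 for complex II. Removing the length and GC trend gave −0.12 (fractions, MP) and −0.41 (interaction). DESeq2 passed 1 of the 82 genes in each comparison between populations, Cox6b2 and Cox6a2.

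Counts over all genes moved more. For MP over LSK in total RNA, 179 genes passed, against 1471 with DESeq2, 687 with the length and GC trend removed, 328 with library totals, 1206 without the filter, 850 in the authors' table with limma, 0 with only the groups compared, 0 without both MP libraries numbered 1, and 0 to 446 without 1 library. For polysomal RNA, 551 passed, against 1624, 1056 (trend removed), 1558 (no filter), 304 (only the groups), 197 without both LSK libraries numbered 2, 0 without both MP libraries numbered 1, and 0 to 516 without 1 library. For the fractions in LSK, 0 passed, against 433 (DESeq2), 2 (trend), 547 (no filter) and 486 (authors' table). For the fractions in MP the values were 0, 30 (DESeq2) and 22 (no filter), and for the interaction 0, 1 (DESeq2) and 4 (no filter). The cause was not tested.

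The library number as a replicate block gave 570 genes for MP over LSK in total RNA, and a block within population gave 1 for the fractions in MP. Deviations of same-numbered libraries correlated at 0.25 to 0.62 in the 6 pairs numbered 1. Of the 6 pairs numbered 2, 3 join groups of 2 libraries, where deviations from the group mean are equal and opposite. Their values of 0.25, 0.46 and 0.59 thus repeat those of the pairs numbered 1 and add nothing. The 3 pairs with MP polysomal 2 correlated at −0.06 (LSK polysomal 2), −0.35 (LSK total 2) and −0.37 (MP total 2), so the numbers were not taken as pairs. The block passed 0 of the 82 genes.

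Some named genes changed sign. Without both LSK libraries numbered 2, polysomal over total RNA in LSK was −0.57 for Atp5b and −0.46 for Uqcrc1, and Uqcrc1 was 1.85 for MP over LSK in polysomal RNA and 0.32 for the interaction. With the length and GC trend removed, Cox7b (0.53) and Cox7c (0.23) in LSK, Sdhb (0.33) and Uqcr11 (0.10) in MP and Uqcrc1 between populations in polysomal RNA (0.39) turned positive. Without 1 library, Atp5b ran from −0.93 to 2.32 for the fractions in LSK and from −2.88 to 0.30 for the interaction. Uqcrc1 ran from −0.56 to 2.68, from −2.76 to 0.42, and from −1.38 to 1.85 in polysomal RNA between populations, where Uqcrq ran from −0.058 to 1.70. Removing a library from a group of 2 leaves a lone one that is assumed to vary like the others. Between libraries of a group the chi-square per degree of freedom was 217 to 682 over all genes, where counting error alone gives about 1. For members with few counts, such as Cox6a2 at 17 to 68 counts a library, the part of count depth was not tested. The median without the 13 genes over 4-fold apart was an alternative chosen after seeing the data.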
